A study of Mus musculus with 22 samples.

Results

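The 10 genes described here are Serpinb9, Serpinb9b, Serpinb6a, Serpinb6b, Serpina3g, Serpina3f, Serpine2, Ctsw, Ctsc and Srgn, out of 78298 genes counted, and all 10 were matched by symbol to an Ensembl gene identifier. They were chosen by name as protease inhibitors and accessory genes of cytotoxic granules, with earlier results of these libraries known, in particular the difference of Serpinb6b, Serpinb9 and Ctsw between female and male fresh natural killer (NK) cells. That difference is therefore given below as a description, with no test. The series sequenced messenger RNA in 22 libraries and asks whether sex shapes the response of NK cells to pancreatic cancer. NK cells are innate lymphocytes that kill tumour cells, and Panc02 is a mouse pancreatic cancer line.

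The groups were as follows. Splenic NK cells in monoculture, kept for 24 h with interleukin-2 (IL-2), came from female donors (libraries 1 and 2) and male donors (libraries 4 and 5). Fresh, untreated splenic NK cells came from female donors (1 and 2) and male donors (4 and 5). Co-cultures of Panc02 with NK cells of female donors (1 and 2) or male donors (4 and 5) were also kept for 24 h with IL-2. Allografts were Panc02 tumours grown in female mice (tumours 1 to 4) and male mice (tumours 5 to 8), whose own immune and stromal cells they contain. Their counts were deposited apart from those of all other libraries, and RNA input was 500 ng for allografts and 100 ng for cell culture. Differences between tumours and the other libraries cannot be told apart from these. Panc02 cultured alone had 2 libraries. Strain, age and genetic background of the mice are not given in the sources used here, nor whether each sample came from its own animal, and p-values therefore rest on variation among the libraries alone, some of it possibly technical.

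Killer lymphocytes store granzymes and perforin in secretory granules, where the proteoglycan serglycin binds them and the peptidase cathepsin C removes a dipeptide that keeps granzymes inactive. Serpins are inhibitors that offer a protease an exposed loop as bait and trap the enzyme when it cuts. Cytosolic serpins of clade B protect the killer cell, and some tumour cells, from granzymes that stray into the cytosol. Serpinb9 inhibits granzyme B. Serpinb9b is its paralogue and inhibits granzyme M, Serpinb6b inhibits granzyme A, and Serpinb6a is the mouse counterpart of a human inhibitor of cathepsin G. Serpina3g blocks lysosomal cathepsins that leak into the cytosol, and Serpina3f is its neighbouring paralogue. Serpine2, protease nexin 1, is secreted and inhibits thrombin, urokinase and plasmin. Ctsw encodes cathepsin W, a cysteine protease largely restricted to NK and cytotoxic T cells. Ctsc encodes cathepsin C, and Srgn encodes the serglycin core protein.

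In GRCm39, 4 of the genes lie on chromosome 13. Serpinb6b (33149192 to 33163050), Serpinb9 (33187233 to 33201940) and Serpinb9b (33211399 to 33225867) follow each other on the plus strand, and Serpinb6a (34101901 to 34186777) lies on the minus strand. Serpina3f (104180803 to 104187388) and Serpina3g (104202504 to 104208198) are on the plus strand of chromosome 12. Serpine2 is on chromosome 1 (79771914 to 79838897, minus), Ctsw on chromosome 19 (5515071 to 5518535, minus), Ctsc on chromosome 7 (87927293 to 87960096, plus) and Srgn on chromosome 10 (62329612 to 62363230, minus). Reads that fit more than 1 place were counted, so near-identical copies matter. In reference transcripts, no stretch of 75 bases in 8 of the genes occurred in another gene. Serpina3g shared 7.69% of its 75-base stretches with 5 other genes, and Serpina3f shared 5.33% with 4, so the counts of these 2 genes are less certain. Of the exon bases of Serpina3g, 55.6% also belong to the same-strand gene ENSMUSG00000118588, which was at 0 in every library. How reads in these shared bases were assigned was not examined. That 0 therefore does not show that Serpina3g lost no reads, and its CPM and TPM may be too low.

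Promoter sequences are shown for 2 pairs of neighbouring paralogues whose values are set side by side below, Serpina3g with Serpina3f and Serpinb9 with Serpinb9b. They are RefSeq windows of 300 bases (GRCm38.p6, plus strand, 250 bases before the annotated start and 50 from it), and 9 of the 10 genes had such a window. Capitals mark matches to TTCNNNGAA, a motif bound by STAT factors, or on either strand to the interferon response motif, here GAAA, any 2 bases and GAAA again. Of 32851 promoter windows, 8.3% held TTCNNNGAA and 3.44% held the interferon response motif.
Serpina3g, chr12:104235897-104236196: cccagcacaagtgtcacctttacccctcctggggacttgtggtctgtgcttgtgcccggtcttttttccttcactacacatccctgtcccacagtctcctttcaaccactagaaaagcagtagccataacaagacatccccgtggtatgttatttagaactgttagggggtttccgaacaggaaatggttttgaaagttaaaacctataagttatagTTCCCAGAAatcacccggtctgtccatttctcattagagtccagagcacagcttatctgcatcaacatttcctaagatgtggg
Serpina3f, chr12:104214294-104214593: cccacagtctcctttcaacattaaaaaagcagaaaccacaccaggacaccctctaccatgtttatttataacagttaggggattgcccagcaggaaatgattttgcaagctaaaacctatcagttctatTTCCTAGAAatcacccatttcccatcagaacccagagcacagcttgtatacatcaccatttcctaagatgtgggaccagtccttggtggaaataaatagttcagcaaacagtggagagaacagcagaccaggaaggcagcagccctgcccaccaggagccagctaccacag
Serpinb9, chr13:33004291-33004590: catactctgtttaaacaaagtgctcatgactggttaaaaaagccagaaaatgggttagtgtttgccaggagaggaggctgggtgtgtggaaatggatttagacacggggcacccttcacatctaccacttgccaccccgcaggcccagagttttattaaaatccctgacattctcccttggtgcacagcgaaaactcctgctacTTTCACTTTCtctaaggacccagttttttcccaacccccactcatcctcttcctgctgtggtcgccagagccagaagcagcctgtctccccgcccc
Serpinb9b, chr13:33027164-33027463: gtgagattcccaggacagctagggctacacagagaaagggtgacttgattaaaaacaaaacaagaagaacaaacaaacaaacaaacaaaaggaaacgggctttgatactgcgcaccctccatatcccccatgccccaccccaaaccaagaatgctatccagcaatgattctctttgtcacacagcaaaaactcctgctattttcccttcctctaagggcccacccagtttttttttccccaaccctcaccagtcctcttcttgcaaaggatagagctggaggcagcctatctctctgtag
The Serpina3g match began at position -33 and the Serpina3f match at -121 relative to each gene's start. These 2 windows had 169 identical bases among 202 aligned, or 83.7%, with 196 gap bases. A second Serpina3f window, not shown, held the same match at -210. Its identity to the Serpina3g window was 61.9% over 247 aligned bases. In the Serpinb9 window the capitals at -46 are the interferon response motif on the minus strand, and the Serpinb9b window, with 67.4% identity over 276 aligned bases, held neither motif. Elsewhere, Ctsc held TTCNNNGAA at -236, 1 of 2 Srgn windows held the interferon response motif, and 1 of 2 Serpinb6a windows held both motifs, overlapping. A match only says that these letters are present.

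Libraries held 13025549 to 46842646 counts, and 14676 to 21333 genes had at least 10. All 7 NK markers exceeded 1 CPM (a gene's counts scaled to its library's total) in every NK library, and their summed level was 4768 to 5499 CPM in monoculture and 4929 to 5647 CPM in fresh cells. T cell markers summed to at most 20.2 CPM there. Cultured Panc02 carried 2951 and 2981 CPM of epithelial keratin and junction markers. Of the 7 NK markers, up to 5 were at 0 in a Panc02 library, and Eomes alone exceeded 1 CPM. Allografts held macrophage markers at 3306 to 6859 CPM (8 of 8 markers in every tumour), T cell markers at 60.0 to 149.6 CPM and NK markers at only 7.50 to 41.0 CPM. In such bulk RNA, fewer cells of a type and less RNA per cell cannot be told apart.

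**Figure D1:**
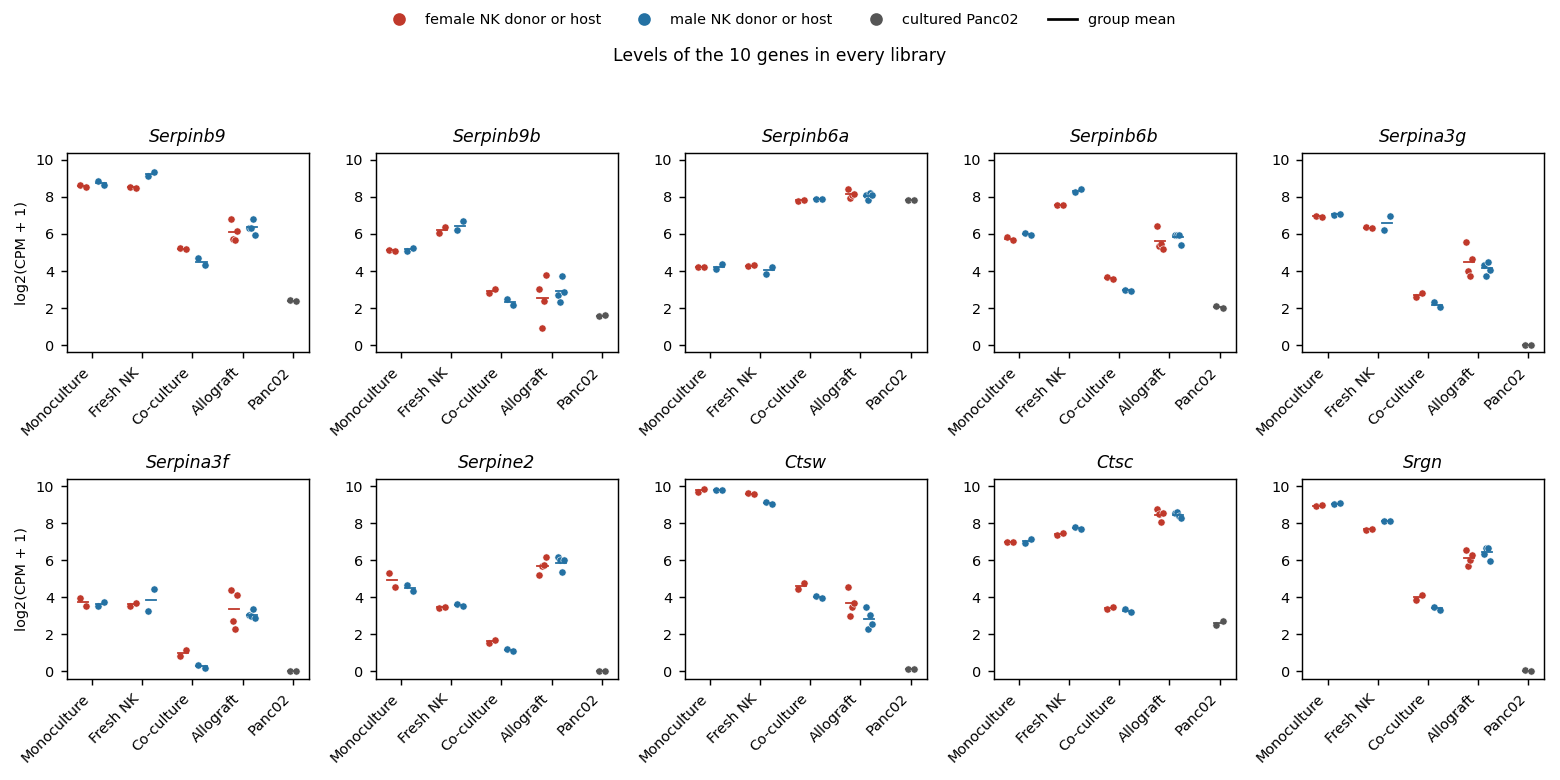
Levels of the 10 genes in all 22 libraries as log2(CPM + 1), by condition, with 1 point per library, coloured by the sex of the NK donor or tumour host, and a line at each group's mean. Serpinb6a was the gene with a high level in cultured Panc02 (225 CPM in both libraries), whereas Serpina3g, Serpina3f and Serpine2 had 0 counts there.

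Levels between genes were compared per transcript length, as TPM (counts per base of transcript, scaled to the library). In monoculture Ctsw led with a mean of 1404 TPM, then Srgn with 700.4, Serpinb9 with 350.9 and Serpina3g with 181.5, and the ranges over 4 libraries of these genes did not overlap. Serpinb6b averaged 76.7 TPM and Ctsc 66.4 TPM in monoculture, with overlapping ranges, followed by Serpinb9b at 30.5, Serpina3f at 15.7, Serpinb6a at 9.83 and Serpine2 at 9.36. In fresh cells Ctsw also led with 1053 TPM, and Serpinb9 (421.9), Serpinb6b (341.5) and Srgn (328.3) overlapped. Serpine2 was the lowest in fresh cells, at 3.83 TPM.

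Culture with IL-2 moved the granule genes in opposite directions. Srgn, Serpine2, Ctsw and Serpina3g rose, Serpinb6b, Serpinb9b and Ctsc fell, and Serpinb9, Serpinb6a and Serpina3f did not pass the test. Thus 7 of the 10 genes were called, by edgeR's quasi-likelihood test with Benjamini-Hochberg adjustment at 0.05, against 45.2% of all 19623 genes tested. The 4 that rose stand against 23.1% of all genes, and the 3 that fell against 22%. Their median log2 fold change was 0.08, beside 0.01 over all genes. Of fresh and cultured NK cells, the labels' protocols describe RNA capture on oligo(dT) beads for sorted cells and phenol extraction for cell experiments, so culture and extraction cannot be told apart. Markers of other cells also differed. Those of erythroid precursors were at 25.9 to 53.8 CPM in monoculture against 250.8 to 382.1 CPM in fresh cells, and of platelets at 33.3 to 76.4 against 238.1 to 436.5 CPM. Dendritic cell markers were at 8.77 to 10.5 against 41.3 to 51.7 CPM, and plasma cell markers at 1.64 to 5.09 against 20.2 to 87.8 CPM. Neutrophil markers overlapped, at 23.5 to 366.8 against 23.5 to 463.5 CPM. The part of such cells in these results was not tested.

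Among the granule accessory genes, Srgn had 494.0 and 498.2 CPM in female and 520.0 and 551.5 CPM in male monocultures, against 197.3 and 207.6 CPM in female and 276.9 and 273.3 CPM in male fresh cells. Every monoculture was above every fresh library. The log2 fold change was 1.23 ± 0.05 (SE; adjusted p = 1.67e-11 by edgeR). Ctsw had 837.1 and 915.3 CPM in female and 900.0 and 898.6 CPM in male monocultures, against 787.6 and 767.3 CPM in female and 561.5 and 527.6 CPM in male fresh cells. The groups were again apart, with a smaller log2 fold change of 0.55 ± 0.05 (edgeR adjusted p = 4.7e-07). Ctsc, the granzyme-activating peptidase, went the other way. It had 127.9 and 127.0 CPM in female and 120.8 and 141.8 CPM in male monocultures, against 163.3 and 176.7 CPM in female and 220.0 and 209.3 CPM in male fresh cells, a log2 fold change of -0.46 ± 0.06 (edgeR adjusted p = 1.29e-05).

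Among the clade B inhibitors, Serpinb6b showed the largest change of the 10 genes. It had 55.4 and 50.7 CPM in female and 66.3 and 60.4 CPM in male monocultures, against 190.9 and 187.9 CPM in female and 303.7 and 339.4 CPM in male fresh cells. No monoculture reached any fresh library, and the log2 fold change was -1.99 ± 0.06 (edgeR adjusted p = 4.51e-13). Serpinb9b had 34.1 and 33.4 CPM in female and 33.1 and 36.6 CPM in male monocultures, against 66.2 and 82.5 CPM in female and 72.4 and 102.9 CPM in male fresh cells. It fell by 1.13 ± 0.11 on the log2 scale (edgeR adjusted p = 2.7e-06), to nearly the same level in all 4 monocultures. Serpinb9 had 406.9 and 377.7 CPM in female and 467.1 and 393.1 CPM in male monocultures, against 374.2 and 359.4 CPM in female and 559.2 and 657.4 CPM in male fresh cells. The monocultures lay above the fresh female and below the fresh male libraries, and the averaged log2 fold change of -0.10 ± 0.07 did not pass (edgeR adjusted p = 0.248). Serpinb6a stayed between 13.4 and 19.8 CPM in all 8 libraries, with a log2 fold change of 0.17 ± 0.12 (edgeR adjusted p = 0.30).

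Within the summed TPM of these 4 clade B genes, Serpinb9 made up 73.2% to 76.0% in monoculture, against 48.0% to 50.6% in fresh cells. Serpinb6b made up 15.6% to 17.4% in monoculture, against 38.8% to 42.2% in fresh cells. The 2 ranges were far apart for each gene, and female and male libraries lay close together within each condition. The sum itself was 443.3 to 523.5 TPM in monoculture, against 635.2 to 1135 TPM in fresh cells.

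**Figure D2:**
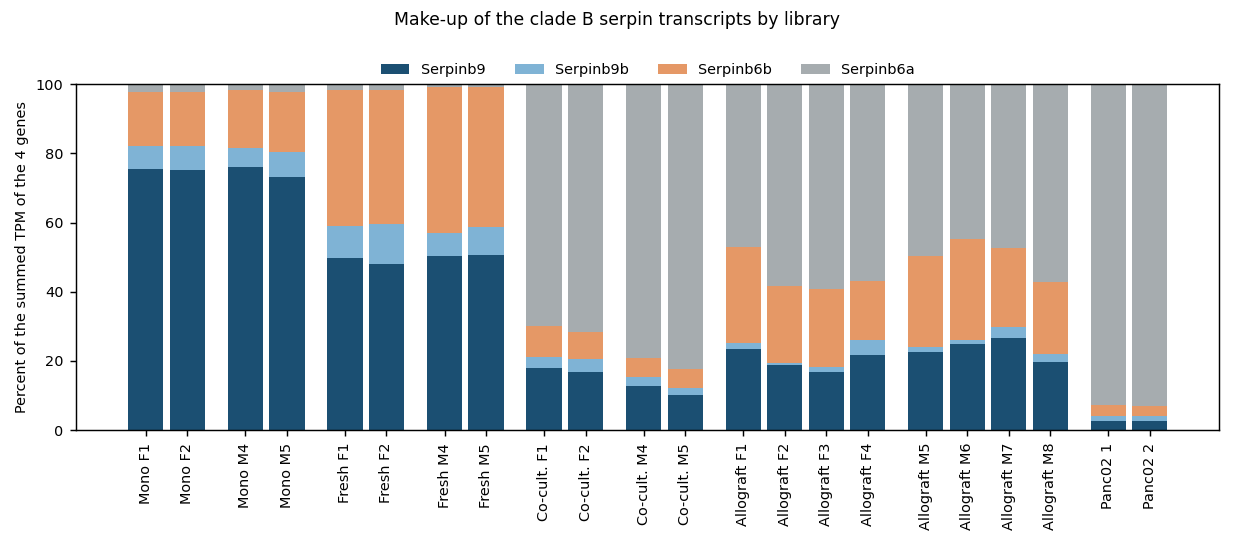
Share of Serpinb9, Serpinb9b, Serpinb6b and Serpinb6a in their summed TPM, in percent, with 1 stacked bar per library (F and M mark the sex of the NK donor or host). Serpinb9 held 73.2% to 76.0% in monoculture and 48.0% to 50.6% in fresh cells, and Serpinb6a held 92.7% and 93.0% in cultured Panc02.

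The target of Serpinb9, Gzmb (granzyme B), rose by 1.63 ± 0.09 on the log2 scale in culture (edgeR adjusted p = 9.06e-08). Serpinb9 TPM per Gzmb TPM was 0.117 and 0.122 in female and 0.114 and 0.116 in male monocultures, against 0.459 and 0.327 in female and 0.377 and 0.408 in male fresh cells. The mean was 0.117 ± 0.003 in monoculture and 0.393 ± 0.055 in fresh cells (SD, n = 4 each), so that each Gzmb transcript stood beside fewer Serpinb9 transcripts after culture in all 4 libraries. The difference of the log2 ratios was -1.73. The ratio was picked after its values were seen, so it is a description with no test. Serpinb9 itself had a log2 fold change of -0.10 ± 0.07 that did not pass.

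Of the serpins outside clade B, Serpine2 had 38.4 and 22.6 CPM in female and 24.2 and 18.9 CPM in male monocultures, against 9.71 and 10.3 CPM in female and 11.5 and 10.7 CPM in male fresh cells. It rose by a log2 fold change of 1.38 ± 0.15 (edgeR adjusted p = 2.11e-06), with monocultures spread more widely than fresh cells. Serpina3g had 126.1 and 121.9 CPM in female and 128.4 and 136.4 CPM in male monocultures, against 80.8 and 79.6 CPM in female and 74.5 and 123.5 CPM in male fresh cells. Here the groups overlapped through fresh male 5, and the log2 fold change was 0.62 ± 0.15 (edgeR adjusted p = 0.0166). That call ended in 6 of the 8 fits that left out 1 library (edgeR adjusted p 0.0735 to 0.129). Its paralogue Serpina3f ranged over 10.5 to 14.8 CPM in monoculture and 8.64 to 21.2 CPM in fresh cells, with a log2 fold change of -0.01 ± 0.26 (edgeR adjusted p = 0.981).

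Fitted by sex, culture effects had the same sign in female and male cells for 8 of the 10 genes, the exceptions being Serpinb9 and Serpina3f. The share of all genes with the same sign was not computed, so nothing is read from that count. In each sex 7 of the 10 genes were called, against 35.3% of all genes in female and 33.3% in male cells. The effects by sex, and their difference, contain the difference between fresh female and male cells with which Serpinb9, Ctsw and Serpinb6b were chosen, so for these genes they are a description. Serpinb9 had a log2 fold change of 0.19 ± 0.10 in female and -0.40 ± 0.10 in male cells. Ctsw had 0.27 ± 0.08 in female and 0.83 ± 0.08 in male cells. The difference of the culture effects, female minus male, was 0.59 ± 0.14 for Serpinb9 and -0.56 ± 0.11 for Ctsw. These were the 2 of 10 genes that edgeR called in this contrast, where it called 1.65% of all genes, and nothing is read from that count. Both calls also ended without fresh female 1, monoculture female 1 or fresh male 5, where none of the 10 genes was called, and the Serpinb9 call ended in 6 of the 8 fits that left out 1 library.

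**Figure D3:**
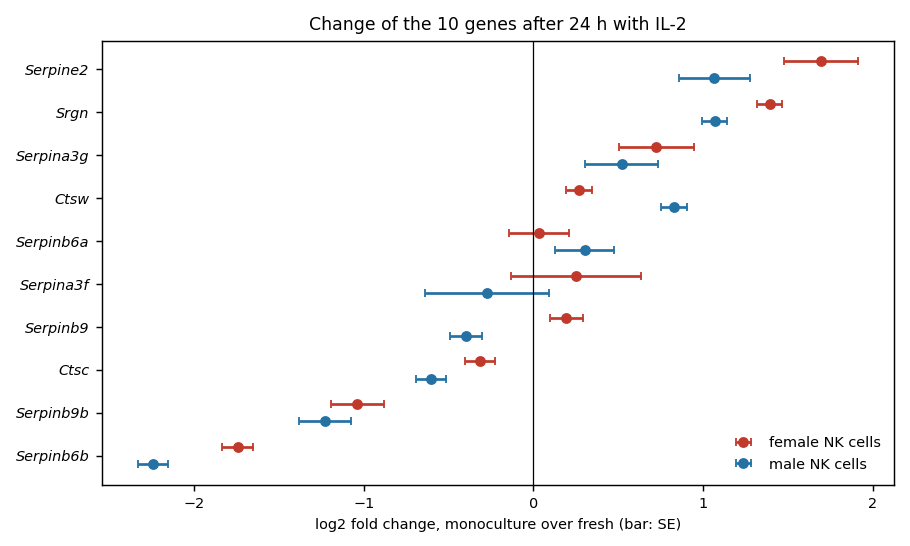
Log2 fold change of monoculture over fresh NK cells for each gene, with female and male donors fitted separately (points) and standard errors (bars), ordered by the mean change. Serpine2, Srgn, Serpina3g and Ctsw lay above 0 in both sexes, and Serpinb6b, Serpinb9b and Ctsc lay below 0 in both.

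In monoculture itself no difference between female and male cells was detected in these genes. None of the 10 was called by edgeR, against 0.0764% of all genes, and DESeq2 also called none. At an unadjusted p under 0.05 edgeR had 2 of the 10, Serpinb6b and Serpine2, beside 1048 of all 19623 genes. Female minus male, the log2 difference was -0.28 ± 0.09 for Serpinb6b, 0.46 ± 0.21 for Serpine2, -0.16 ± 0.10 for Serpinb9 and -0.06 ± 0.08 for Ctsw. The other 6 lay between -0.14 and 0.08.

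In fresh cells, whose sex difference helped to choose the genes, 8 of the 10 had a log2 difference below 0, female minus male. This is a description, and the median over all genes was 0. It was -0.78 for Serpinb6b, -0.75 for Serpinb9, -0.46 for Srgn, -0.44 for Serpina3f, -0.36 for Ctsc, -0.32 for Serpina3g, -0.27 for Serpinb9b and -0.17 for Serpine2. Ctsw (0.50) and Serpinb6a (0.24) lay above 0. Fresh male 5 was the highest fresh library for Serpinb9, Serpinb9b, Serpinb6b, Serpina3g and Serpina3f, and without it 5 rather than 8 genes lay below 0. Neutrophil markers summed to 23.5 and 75.6 CPM in the fresh female libraries and to 170.8 and 463.5 CPM in fresh male 4 and 5; the part of these cells was not tested. Without it Serpinb9 was at -0.63, whereas Serpina3g moved to 0.09 and Serpina3f to 0.36.

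Other granule genes were counted from lists of known function, beside the 23.1% of all genes that rose in culture and the 22% that fell. Of the granule proteases and pore formers, 6 of 11 were testable in NK cells, and 4 rose and 2 fell in culture. Gzmk rose by 2.13 ± 0.19 and Gzma by 0.50 ± 0.06 on the log2 scale, while Prf1 (perforin) fell by 1.12 ± 0.06 and Gzmm, the target of Serpinb9b, fell by 0.89 ± 0.17. The list's median was 1.07, beside 0.01 over all genes. Of 18 genes of granule biogenesis and release, 5 rose and 6 fell (median 0.01), not far from the shares over all genes. Lyst, which controls the size of lysosome-related granules, rose by 0.73 ± 0.07, and Rab27a, which docks granules at the membrane, fell by 0.59 ± 0.07.

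Of 12 further cathepsins, 3 rose, near the 23.1% of all genes, and 5 fell, against 22% of all genes (median -0.50), with Ctso at 0.70 ± 0.08 and Ctsh at -3.08 ± 0.22. Of 3 testable cystatins, the inhibitors of such proteases, 2 rose and 1 fell. Cst7 (cystatin F), which inhibits cathepsin C in granules, rose by 0.24 ± 0.06, and Cst3 fell by 0.78 ± 0.07. Of the 21 other clade B serpins only 4 were testable, 2 of them through the fresh libraries alone, which fixes their direction. Of the other 2, Serpinb1a, an inhibitor of neutrophil proteases, had a log2 fold change of -1.57 ± 0.38. Among the enzymes that build and sulfate the serglycin chains, 4 of 11 rose and 3 fell (median 0.19), with Chst11 at 0.64 ± 0.06 and Chst15 at -3.55 ± 0.29. Of 7 testable partners and targets of Serpine2, 3 rose and 2 fell, but 1 of each (Plau and F2) was testable through 1 condition alone. The thrombin receptor gene F2r had a log2 fold change of 1.16 ± 0.06. Of 15 interferon gamma response genes, 7 rose and 4 fell (median 0.20). Cxcl9, among the 4 that fell, was testable through the fresh libraries alone.

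In co-culture the libraries were mostly Panc02 RNA. Over 365 genes restricted to NK cells, the median level relative to monoculture put NK RNA at 2.80% and 3.41% of the co-cultures with female cells and at 2.05% and 1.76% of those with male cells. Of the 10 genes, 5 had enough counts in cultured Panc02 alone to be testable, namely Serpinb9, Serpinb9b, Serpinb6b, Serpinb6a and Ctsc. The other 5 (Serpina3g, Serpina3f, Serpine2, Ctsw and Srgn) had 0 to 4 counts in each Panc02 library and were testable only through the co-cultures, so that they had to be higher, and they are given as levels with no count or test. Of the 5 testable on cultured Panc02, 4 were higher in co-culture, beside 9.27% of the 15872 genes of that kind (12.2% of all 18172 genes tested). Serpinb6a did not pass, with 220.1 and 231.7 CPM beside female and 233.5 and 234.8 CPM beside male NK cells, against 224.7 and 224.9 CPM in cultured Panc02. Its log2 fold change was 0.09 ± 0.04 (edgeR adjusted p = 0.121).

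Ctsw had 20.5 and 26.8 CPM beside female and 16.0 and 14.7 CPM beside male NK cells, against 0.085 and 0.095 CPM in cultured Panc02. The log2 fold change was 7.73 ± 0.25. Srgn had 13.6 and 16.5 CPM beside female and 10.3 and 8.93 CPM beside male NK cells, against 0.043 and 0 CPM in cultured Panc02, a ratio of 556.5 (95% counting interval 153.9 to 4598, from 2 counts). Serpina3g, Serpine2 and Serpina3f had no count in cultured Panc02. Against a floor of 3 counts over both libraries they were at least 134.5-fold, 50.1-fold and 18.7-fold higher in co-culture. Ctsc rose less, by 0.87 ± 0.14 on the log2 scale (edgeR adjusted p = 0.0001), to 8.17 to 10.1 CPM in co-culture against 4.76 and 5.67 CPM in cultured Panc02.

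Serpinb9 had 36.6 and 35.4 CPM beside female and 24.6 and 19.0 CPM beside male NK cells, against 4.33 and 4.25 CPM in cultured Panc02. Every co-culture was above both Panc02 libraries, with a log2 fold change of 2.76 ± 0.11 (edgeR adjusted p = 1.59e-13). Serpinb6b rose by 1.53 ± 0.15, to 11.8 and 10.8 CPM beside female and 6.90 and 6.55 CPM beside male NK cells, against 3.31 and 2.94 CPM in cultured Panc02 (edgeR adjusted p = 1.01e-07). Serpinb9b rose by 1.44 ± 0.20, to 6.04 and 7.22 CPM beside female and 4.66 and 3.50 CPM beside male NK cells, against 1.92 and 2.04 CPM in cultured Panc02 (edgeR adjusted p = 1.72e-05).

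These levels were set beside a mixture in which each library's NK share carries the monoculture level of the same sex and the rest carries the level of cultured Panc02. Srgn and Ctsw sat at or just under it, at 0.94 to 0.98 and 0.83 to 0.92 of the mixture over 4 libraries. Ctsc (1.08 to 1.18) and Serpinb6a (1.01 to 1.06) lay slightly above it. Serpinb9 was at 1.62 to 2.41 times the mixture, Serpinb6b at 1.57 to 2.60, Serpinb9b at 1.37 to 2.36, Serpine2 at 2.18 to 3.13 and Serpina3g at 1.36 to 1.45. Serpina3f, with 16 counts beside male NK cells in all, ranged from 0.65 to 2.83.

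For Serpinb9 the mixture was 15.2 and 17.5 CPM beside female and 13.03 and 11.8 CPM beside male NK cells. Of these, 11.0 and 13.4 CPM beside female and 8.82 and 7.55 CPM beside male cells came from the NK part. Over all genes with a mixture of at least 5 CPM, the median ratio was 0.97 to 0.98 and the 95th percentile 1.15 to 1.18. Over the 512 to 698 genes that came mainly from NK cells, the 95th percentile was wider, at 2.29 to 2.81. Serpinb9 lay at the 87.9th to 93rd percentile of these, within their spread. Against the same NK genes Serpina3g lay at the 77.9th to 82.2nd percentile, within their spread, Srgn at the 46.1st to 48.8th and Ctsw at the 31.9th to 42.6th. Serpine2, whose mixture beside male NK cells was too low for this comparison, lay at the 91.9th and 93.0th percentile in the co-cultures with female cells. That was also within the spread. The mixtures of Serpinb6b and Serpinb9b were below 5 CPM and came mostly from Panc02, so neither set of genes gives a background for their ratios. Whether any RNA beyond the mixture came from NK cells or from Panc02 cannot be told apart in mixed RNA.

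**Figure D4:**
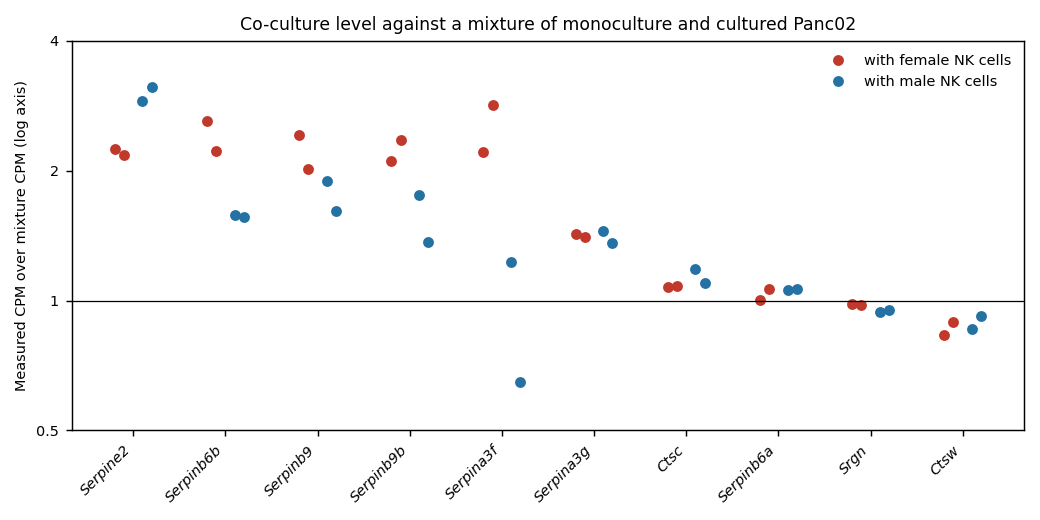
Measured CPM in each co-culture library divided by the CPM of a mixture of monocultured NK cells and cultured Panc02 (log axis, 1 point per library, line at a ratio of 1). Srgn and Ctsw lay below 1 in all 4 libraries, and Serpinb9, Serpinb9b, Serpinb6b, Serpina3g and Serpine2 lay above 1 in all 4.

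Of the interferon gamma response list, 5 of 15 genes were testable on cultured Panc02 alone, and all 5 were higher in co-culture, including Irf1 (log2 fold change 2.62 ± 0.06). The other 10 were testable only through the co-cultures. The serglycin-sulfating gene Chst11 had mean levels of 4.21 CPM beside female and 2.67 CPM beside male NK cells, and 0 CPM in cultured Panc02.

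Between co-cultures with female and male NK cells, Serpinb9, Serpinb6b and Ctsw were higher with female cells. These 3 of 10 genes stand against 0.985% of all genes. That share covers all genes of libraries that were mostly Panc02 RNA, and the co-cultures with female cells held more NK RNA. The 3 are also the genes whose difference in fresh cells was known when the 10 were chosen. Nothing is therefore read from that count. The log2 difference was 0.70 ± 0.10 for Serpinb9 (edgeR adjusted p = 0.00088), 0.72 ± 0.15 for Serpinb6b (edgeR adjusted p = 0.0183) and 0.60 ± 0.13 for Ctsw (edgeR adjusted p = 0.0191). Srgn (0.62 ± 0.16), Serpinb9b (0.68 ± 0.21), Serpina3g (0.60 ± 0.23), Serpine2 (0.74 ± 0.36) and Serpina3f (2.24 ± 0.69) had differences of like or larger size that did not pass. Ctsc (0.13 ± 0.15) and Serpinb6a (-0.08 ± 0.04), most of whose level was already present in cultured Panc02, were nearer 0.

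The NK share of RNA was also higher in both co-cultures with female cells. Relative to each library's own mixture, Ctsw was at 0.83 and 0.89 beside female and 0.86 and 0.92 beside male NK cells, so these ranges overlapped. Serpinb9 stood higher beside female cells, at 2.41 and 2.02 times its mixture against 1.89 and 1.62 times beside male NK cells. Serpinb6b was at 2.60 and 2.23 beside female and 1.58 and 1.57 beside male cells. Serpinb9b was likewise higher beside female cells, at 2.10 and 2.36 against 1.75 and 1.37 beside male cells. Serpine2 went the other way, at 2.24 and 2.18 times its mixture beside female and 2.90 and 3.13 times beside male NK cells. Its female monocultures, whose mean sets the female mixture, differed, at 38.4 and 22.6 CPM. Its co-culture levels were only 1.18 to 2.27 CPM, so the direction for Serpine2 is uncertain. Srgn (0.98 in both beside female, 0.94 and 0.95 beside male cells) differed little. These ratios were not tested by sex, and no share of all genes with ratios apart by sex was computed. Serpinb9 and Serpinb6b were also chosen with their difference in fresh cells known. Nothing is therefore read from the direction of these ratios. Interferon gamma response genes were higher with female cells in 7 of 15 cases, Irf1 by 0.78 ± 0.06 on the log2 scale. Their part in the Serpinb9 difference was not tested. The Ctsw and Serpinb6b calls ended when either male library was left out; without co-culture female 1 Serpinb6b was lost and without co-culture female 2 Ctsw was lost, at a log2 difference of 0.38 (edgeR adjusted p = 0.279).

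In allografts the order of the genes was another. Ctsc led with a mean of 149.0 TPM, followed by Serpinb6a (123.6), Srgn (87.2), Serpinb6b (57.0) and Serpinb9 (53.1), with overlapping ranges between neighbours. Of the 5 genes testable on cultured Panc02 alone, Serpinb9, Serpinb6b and Ctsc were higher in allografts by edgeR, beside 25.9% of the 15645 genes of that kind (38.8% of all 23264 genes tested), and Serpinb6a and Serpinb9b did not pass. The other 5 were testable only through the allografts, which fixes their direction, and are given as levels. Macrophage markers summed to 3306 to 6859 CPM in the tumours and 16.1 to 16.6 CPM in cultured Panc02, and fibroblast markers to 4709 to 14770 CPM in the tumours and 0.90 to 0.98 CPM in cultured Panc02; the part of host cells in each gene was not tested.

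Ctsc had 435.7, 359.4, 270.1 and 371.5 CPM in tumours of female hosts and 375.4, 389.4, 331.5 and 315.9 CPM in those of male hosts, against 4.76 and 5.67 CPM in cultured Panc02. By CPM every tumour also exceeded every NK library, the highest of which had 220.0 CPM. On the TPM scale the ranges overlapped, at 100.7 to 174.7 in tumours and 83.5 to 116.0 in fresh NK cells. The log2 fold change over cultured Panc02 was 6.16 ± 0.26 (edgeR adjusted p = 4.67e-08). Of the further cathepsins, all 7 testable on cultured Panc02 alone were higher as well, such as Lgmn (4.46 ± 0.19) and Ctsh (5.63 ± 0.25).

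Serpine2 had 36.4, 50.2, 52.2 and 71.1 CPM in tumours of female hosts and 70.3, 63.1, 39.6 and 64.0 CPM in those of male hosts, against 0 counts in cultured Panc02. This is at least 1660-fold higher against the floor of 3 counts. Its secreted targets urokinase and tissue plasminogen activator were higher too, Plau by 2.56 ± 0.21 and Plat by 2.74 ± 0.23 on the log2 scale. Srgn had 92.6, 50.9, 64.2 and 76.9 CPM in tumours of female hosts and 80.7, 101.1, 102.2 and 62.1 CPM in those of male hosts, a ratio of 3535 over cultured Panc02 (95% counting interval 978.4 to 29190). Both genes were far above cultured Panc02 in all 8 tumours.

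Serpinb9 had 109.7, 52.4, 50.1 and 69.4 CPM in tumours of female hosts and 79.5, 80.5, 109.4 and 61.4 CPM in those of male hosts, against 4.33 and 4.25 CPM in cultured Panc02. The log2 fold change was 4.22 ± 0.39 (edgeR adjusted p = 8.86e-06). Serpinb6b had 84.2, 40.1, 43.7 and 35.0 CPM in tumours of female hosts and 60.5, 61.2, 60.4 and 41.9 CPM in those of male hosts, with a log2 fold change of 4.15 ± 0.39 over cultured Panc02 (edgeR adjusted p = 8.9e-06). Their share of the clade B sum was 16.8% to 26.7% for Serpinb9 and 17.0% to 29.2% for Serpinb6b, close to each other, unlike in monoculture. Serpinb9 per Gzmb was 5.22 to 8.89 on the TPM scale in the tumours and 0.129 to 0.159 in co-cultures. Gzmb itself averaged 5.15 CPM in tumours of female hosts and 4.76 CPM in those of male hosts.

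Serpinb9b spanned 0.93 to 12.8 CPM in tumours of female hosts and 4.02 to 12.3 CPM in those of male hosts. Its log2 fold change over cultured Panc02 was 1.82 ± 0.82 (edgeR adjusted p = 0.0785), and it passed without allograft female 2, its lowest tumour (2.00 ± 0.54, edgeR adjusted p = 0.00975). Serpinb6a ranged from 223.5 to 341.2 CPM in the tumours, against 224.7 and 224.9 CPM in cultured Panc02, a log2 fold change of 0.37 ± 0.15 (edgeR adjusted p = 0.0511). It passed in 3 of the 10 fits that left out 1 library, without allograft female 2, female 3 or male 6 (edgeR adjusted p 0.0335 to 0.0478). On the TPM scale Serpinb6a showed no rise, with a mean of 123.6 in the tumours and 125.5 in cultured Panc02. Serpina3g ranged over 12.2 to 46.1 CPM and Serpina3f over 3.83 to 20.3 CPM in the tumours, at least 611.8-fold and 282.5-fold above the floor of cultured Panc02.

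Ctsw, the gene closest to an NK and T cell marker, had 22.9, 7.09, 9.99 and 11.9 CPM in tumours of female hosts and 10.0, 3.87, 7.33 and 4.88 CPM in those of male hosts, against 0.085 and 0.095 CPM in cultured Panc02. Its log2 fold change was 6.69 ± 0.72, yet its highest tumour was far below the lowest NK library, 527.6 CPM. By CPM, allograft female 1 was the highest tumour for Ctsw, Serpina3g, Serpina3f, Serpinb9, Serpinb6b, Serpinb6a and Ctsc. On the TPM scale male 7 was higher for Serpinb9 (76.4 against 70.0) and male 6 for Ctsc (174.7 against 167.2). Allograft female 1 also held the highest sums of NK markers (41.0 CPM), T cell markers (149.6 CPM) and macrophage markers (6859 CPM), and its Serpine2 was the lowest. The part of these cells in its values was not tested.

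**Figure D5:**
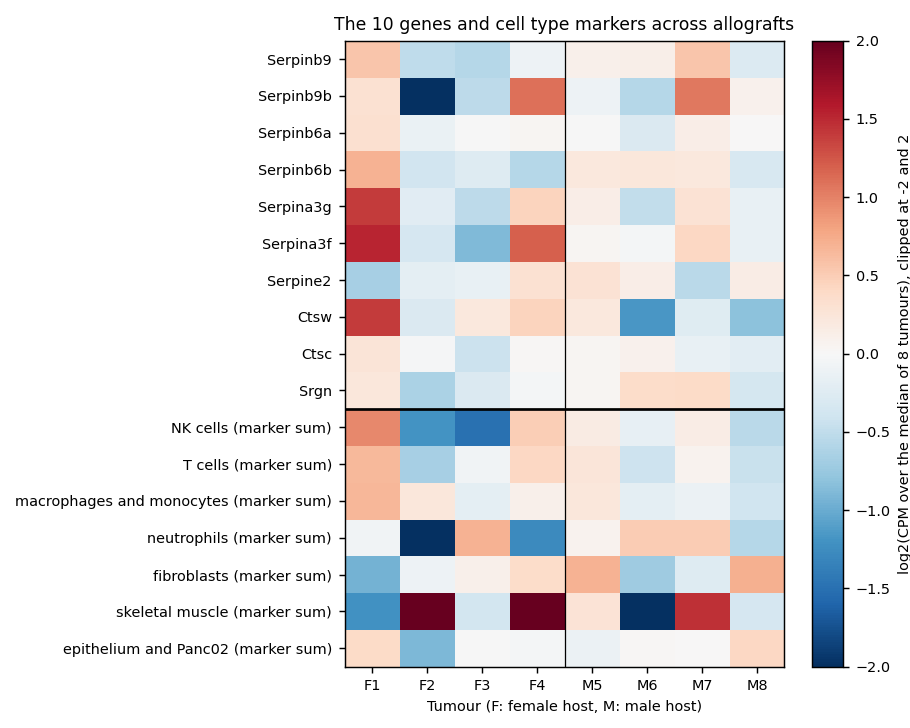
Levels of the 10 genes and summed markers of 7 cell types in the 8 allografts, as log2 of CPM over the median of the 8 tumours (colours clipped at -2 and 2). Allograft female 1 stood high for Ctsw, Serpina3g and Serpina3f and for NK, T cell and macrophage markers, and allograft female 2 stood low for Serpinb9b.

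No difference between tumours of female and male hosts was detected in these genes. None of the 10 was called by edgeR, against 0.0146% of all 20560 genes, and DESeq2 also called none. At an unadjusted p under 0.05 edgeR had 1 of the 10, Ctsw, beside 3087 of all 20560 genes. The log2 difference of Ctsw was 1.04 ± 0.41 female minus male (edgeR adjusted p = 0.29). The others ran from -0.24 ± 0.22 for Srgn to 0.68 ± 0.50 for Serpina3f, with standard errors from 0.14 for Serpinb6a to 0.69 for Serpinb9b.

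Across the 9 group means, the genes most like the members were sought by the root mean square difference of centred log2(CPM + 1), among 14010 genes with a group mean of at least 5 CPM. Ctsw was most like Klrd1 (0.280), which encodes the NK receptor subunit CD94, then Il18r1 (0.356) and Nkg7 (0.363). Ctsc was most like Csf2ra (0.157) and Lair1 (0.222), a myeloid growth factor receptor subunit and a leukocyte inhibitory receptor. Serpinb6a, the gene of the tumour line, was most like Hoxa10 (0.123) and the junction gene Jup (0.127). Serpinb9 had no close match, with Samsn1 nearest at 0.385, and Serpine2 was furthest from its nearest gene, Gngt2, at 0.449. Serpinb9b lay nearest to I730030J21Rik (0.264), Serpinb6b to Gypc (0.346), Serpina3g to Mfng (0.221) and Serpina3f to Slc41a3 (0.208).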

How the data were processed

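Read counts per gene for 22 libraries in 9 groups were used as the authors deposited them, as raw whole-number counts. Per the file headers, featureCounts 2.0.6 worked on exons of Ensembl release 113, used strand setting 2 (reverse), kept multi-mapping reads and treated each mate as a read. Even counts made up 66.4% to 78.6% of counts of 1 to 20, so counting intervals and bounds, which cover counting error only, may be too narrow. The build was GRCm39, and HISAT2 2.2.1, SAMtools 1.19.2 and cutadapt 4.4 are named too, per the submitters' processing notes. Gene lengths, another deposited column, gave TPM. The 10 genes, the lists and the tests were chosen with earlier results of these data known.

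Tests were edgeR 4.0.16 quasi-likelihood tests with robust fitting, TMM scaling and the filterByExpr filter, run in R 4.3.3 and checked on simulated data; p-values were adjusted by Benjamini-Hochberg over all genes, with a threshold of 0.05. The NK fit used 8 libraries (19623 genes, 4 residual degrees of freedom), the co-culture fit 6 with cultured Panc02 (18172 genes), the allograft fits 10 (23264) and 8 (20560). NK-restricted genes had at least 20 CPM in monoculture of each sex and at most 0.1% of that in cultured Panc02. All 10 genes are named throughout, and of each list up to 3 called genes in the commoner direction and 2 in the other, by smallest p. Alternatives were DESeq2 1.42.0, median-ratio scaling, no filter, halved counts, other library sets, a replicate block and leaving out each library. Some results for single genes outside the 10 are not reported here.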

Additional observations from a re-analysis of the deposited data

Results flagged for a closer look

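In allografts of male hosts, Serpinb6b of tumour 8 (41.9 CPM) stood apart from the other 3, which had 60.4 to 61.2 CPM: its gap to the nearest was 0.961 of the group's range, above the critical value of 0.829 for 4 samples. That was 1 of 20 groups of 4 examined, and chance alone flags about 1 in 20.

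Female minus male, the effect of culture on NK cells had a log2 difference of 0.59 for Serpinb9 and -0.56 for Ctsw, and both were called by edgeR. The contrast contains the difference between fresh female and male cells with which these genes were chosen, so the values are a description and the calls are no support. The Serpinb9 call ended in 6 of the 8 fits that left out 1 library, and the Ctsw call in 3 of the 8. Serpinb9 had an effect of 0.19 in female and -0.40 in male cells, and Ctsw of 0.27 in female and 0.83 in male cells. In both genes the monocultures of the 2 sexes lay close together (log2 difference -0.16 for Serpinb9 and -0.06 for Ctsw, female minus male), and the fresh cells were apart (-0.75 for Serpinb9 and 0.50 for Ctsw).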

How the results depend on the processing

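Of the 10 genes' called effects, all kept their direction in every alternative fit, and 356 of 387 refits kept the call. These refits include the 5 genes that could only be higher against cultured Panc02. They also include the 2 calls by sex that are a description, so this share is not read as support. Culture called 7 genes, and 4 in a fit of all 22 libraries, where Serpinb9b, Serpina3g and Ctsw were lost (edgeR adjusted p 0.127, 0.187 and 0.186); leaving out 1 library gave 6 to 7. The difference of culture effects by sex, a description for genes chosen on fresh cells, called 2 genes, 4 by DESeq2, 0 in the fit of 22 libraries and 0 to 3 leaving out 1 library. Co-culture with female against male cells called 3 genes, 0 in the fit of 22 libraries and 1 to 4 leaving out 1. Fresh cells had 8 genes below 0, and 5 to 8 leaving out 1 library. Counts over all 10 genes against cultured Panc02, 5 of which could only be higher, ranged from 8 to 10 for allografts and for co-culture. The NK share and the ratios to the mixture were recomputed with other sets of NK-restricted genes: Serpina3g moved from a mean of 1.41 to 1.47 and Srgn from 0.96 to 0.94 or 1.00.

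Signs turned only for effects that were not called, mostly when 1 library was left out. For culture, Serpina3f then ranged from -0.26 to 0.40, and took 0.014 in the fit of 22 libraries and 0.049 with the replicate block. For the difference of culture effects by sex the ranges were -0.10 to 0.42 for Serpinb9b, -0.22 to 0.52 for Serpina3g and -0.28 to 1.03 for Serpina3f, each negative without fresh male 5. For sex in monoculture they were -0.17 to 0.30 for Serpina3f, -0.15 to 0.0036 for Ctsw, -0.18 to 0.12 for Serpinb6a and -0.19 to 0.041 for Ctsc. There, median-ratio scaling put Serpinb6a at 0.00021 and the fit of 22 libraries put Serpina3f at -0.012. For host sex the ranges were -0.33 to 0.014 for Serpine2, -0.033 to 0.20 for Ctsc, -0.73 to 0.30 for Serpinb9b and -0.46 to 0.041 for Serpinb6b.

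Over all genes, calls for the difference of culture effects (323) became 872 without a filter, 935 by DESeq2, 546 with co-cultures in the fit, 0 in the fit of 22 libraries and 115 to 612 leaving out 1 library. Sex in monoculture (15 genes) became 109 without a filter, 39 by DESeq2, 23 with co-cultures in the fit and 18 to 29 leaving out 1 library. Co-culture against cultured Panc02 (3325) became 965 in the fit of 22 libraries and 1527 or 1934 without Panc02 1 or 2. Co-culture by sex (207) became 422, 4 and 97 to 215 under no filter, 22 libraries and leaving out 1. Host sex (3) became 14 without a filter, 547 by DESeq2, 1036 in the fit of 22 libraries and 0 to 4 leaving out 1 tumour. The cause of these shifts was not tested.

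The labels number samples alike across conditions but do not say that a number marks an animal. Deviations of same-numbered fresh and monoculture libraries correlated at 0.03 in female and 0.19 in male cells. With the replicate block, culture still called 7 of the 10 genes (7421 rather than 8862 over all genes), and the difference by sex called 3 rather than 2, with Serpinb6b added (0.50 ± 0.12, edgeR adjusted p = 0.0425; 490 rather than 323 genes).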
